A study of Mus musculus with 12 samples.

Results

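Superoxide, hydrogen peroxide and lipid peroxides form wherever cells burn fuel with oxygen, and the kidney tubule does so at a high rate. Superoxide dismutases turn superoxide into hydrogen peroxide, and glutathione peroxidases then reduce hydrogen peroxide or lipid peroxides with electrons from glutathione. Glutathione itself is made from glutamate, cysteine and glycine, with glutamate-cysteine ligase as the first and slowest step. Several genes of this system, among them Nqo1, Gclc, Gclm and Hmox1, are textbook targets of the transcription factor NRF2, which binds the antioxidant response element once its inhibitor KEAP1 lets it go. The members described here are 10 genes of this system, listed by symbol with earlier results of these data known: Sod1, Sod2 and Sod3, Gpx1, Gpx3 and Gpx4, Gclc and Gclm, Nqo1 and Hmox1. All 10 were found among the 23183 gene symbols of each library, and all 10 passed the filter on low values.

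Kidney cortex was taken on day 7 after unilateral ureteral obstruction (UUO), an operation that closes the ureter of a single kidney, from male mice aged 6 to 7 weeks, of strain C57BL/6 by the labels and C57BL/6N by the study's methods. Acot12+/+ mice are wild type, and Acot12-/- mice carry in every tissue a germline mutation made with an RNA-guided endonuclease in Acot12, the gene of an acyl-CoA thioesterase. From each genotype there were 3 libraries of obstructed kidneys (UUO) and 3 of the contralateral kidneys (CL). The CL kidneys served as controls and come from operated mice, and no library of an unoperated or sham-operated mouse was analysed here. Acot12 was at 52.7 to 78.1 FPKM in Acot12+/+ CL and 6.80 to 9.15 FPKM in Acot12-/- CL kidneys, and every Acot12-/- library lay below every Acot12+/+ library of the same side. FPKM values divide the fragments of a gene by its transcript length and by library size, so levels of different genes can be set side by side.

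Values in the following sentences are in the order of replicates 1, 2 and 3. Genes counted as called at an adjusted p under 0.05 in limma on log2(FPKM + 1), with the adjustment over the 13243 genes tested, and rises, falls and log2 fold changes are on that scale. Acot12-/- CL replicate 2 stood apart from its group: it correlated with the other Acot12-/- CL libraries at 0.966 and 0.972, against 0.984 to 0.994 for all pairs outside these 2. In it, genes with over 55% GC had a median deviation of -1.06 from the mean log2(FPKM + 1) of the group's other libraries. Genes with under 45% GC had one of 0.61. Deviations of the members given below are from the mean of the whole group, a smaller measure. The GC content of the members' principal transcripts ran from 42.1% in Gclm to 58.8% in Gpx4. Where a call changed without this library, the value without it is given beside the result.

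RefSeq promoters (GRCm38.p6, 250 bases before to 50 bases after the start) were matched for 7 of the 10 members, and Hmox1, Gclc and Sod3 are only named here. The letters TGACNNNGC, the core of the antioxidant response element, were searched on both strands and occur in 12.4% of all 32851 promoters of this length. Among the matched members they occur in the promoters of Gclm and Sod1, and the AP-1 letters TGANTCA, present in 7.81% of all promoters, occur in none. These promoters are shown because both genes fell after UUO in both genotypes and theirs are the members' windows that hold the element. The capitals mark the match, which reads TGACGGTGC (Gclm) and TGACCACGC (Sod1) on the opposite strand. It lies 134 to 126 bases before the start of Gclm and 56 to 48 bases before that of Sod1. Each line holds the 250 bases before the start on the plus strand, chr3:122245307-122245556 for Gclm and chr16:90220512-90220761 for Sod1.
Gclm: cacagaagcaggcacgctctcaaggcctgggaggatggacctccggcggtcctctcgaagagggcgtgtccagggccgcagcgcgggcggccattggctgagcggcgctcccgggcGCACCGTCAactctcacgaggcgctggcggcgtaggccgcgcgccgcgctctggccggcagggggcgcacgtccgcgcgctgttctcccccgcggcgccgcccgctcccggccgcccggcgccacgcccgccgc
Sod1: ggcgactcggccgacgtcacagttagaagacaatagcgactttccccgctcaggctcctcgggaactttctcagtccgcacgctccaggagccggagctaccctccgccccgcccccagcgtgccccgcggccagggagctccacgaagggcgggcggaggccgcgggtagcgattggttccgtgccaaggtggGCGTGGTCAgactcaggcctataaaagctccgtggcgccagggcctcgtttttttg
The match is a description of letters. The GC content of these windows is 78.4% in Gclm and 66.4% in Sod1.

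The first comparison asked how UUO changed these enzymes in kidneys with Acot12. In Acot12+/+ kidneys 7 of the 10 members fell after UUO, none rose, and 3 did not pass the test. Sod2, Sod1, Nqo1, Gpx4, Gpx3, Gclm and Gclc fell, in this order of size, with log2 fold changes from -2.01 to -1.09. Gpx1 and Sod3 had lower means after UUO and Hmox1 had a higher mean, and none of these was called. Of all genes tested 47.5% were called in this comparison, 23.9% as lower, which is the background of the members' count. The median log2 fold change was -1.20 over the members and 0.01 over all genes tested. At an unadjusted p under 0.05 the count was 8 of 10, against 54.4% of all genes. In 8 of the 10 members no UUO library overlapped a CL library, against 71.3% of all genes, with 7 members lower (35.8% of all genes) and 1, Hmox1, higher (35.5%).

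Among Acot12-/- kidneys 6 of the 10 members fell after UUO and none rose. They were Sod2, Nqo1, Sod1, Gclm, Gpx3 and Gclc, with log2 fold changes from -2.07 to -1.43. Gpx4, which fell in Acot12+/+ kidneys, was not called here, and neither were Sod3, Gpx1 and Hmox1. Here 53.7% of all genes were called and 27.2% were called lower, and the members' median was -1.45 against -0.01 over all genes. The count at an unadjusted p under 0.05 was also 6, against 58.9% of all genes. For 5 of the 10 members the UUO and CL libraries did not overlap, all of them lower, against 55.4% of all genes (27.6% lower and 27.8% higher). With the replicate pair (the CL and UUO kidney of the same number) as a block, the counts were 8 lower and 1 higher in Acot12+/+ and 8 lower in Acot12-/- kidneys, where 51.0% and 56.2% of all genes were called. Without Acot12-/- CL replicate 2 there were 9 calls in Acot12-/- kidneys, all lower, and 63.4% of all genes were called.

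**Figure D1:**
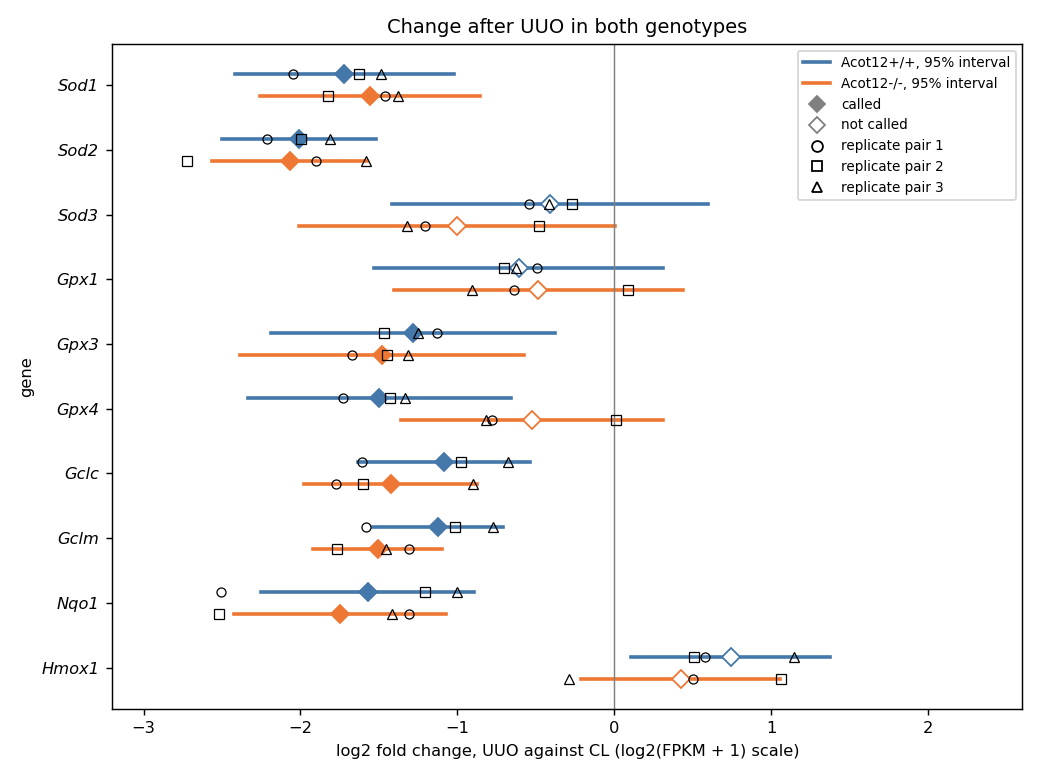
The x axis gives the log2 fold change of UUO against CL on log2(FPKM + 1), with 1 row per member and genotype. Diamonds are the estimates (filled where called), bars their 95% intervals, and open symbols the differences within the replicate pairs. Sod2 lay farthest to the left in both genotypes, at -2.01 and -2.07, and Hmox1 was the member with both estimates above 0.

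The tubule and other cell types of the cortex moved at the same time. The background was 23.9% of all genes lower and 23.6% higher in Acot12+/+, and 27.2% and 26.6% in Acot12-/- kidneys. Of 11 proximal tubule markers 10 fell in Acot12+/+ (median -1.93) and 11 in Acot12-/- kidneys (median -2.53). Their summed level ran from 3254 to 4446 FPKM in CL and from 450.1 to 1071 FPKM in UUO libraries of Acot12+/+ mice. The Acot12-/- libraries held 3570 to 6697 FPKM (CL) and 277.9 to 1349 FPKM (UUO). Of 9 markers of other tubule segments 8 fell in Acot12+/+ (median -1.91) and 7 in Acot12-/- kidneys (median -1.78). All 8 markers of injured tubule rose in both genotypes, and macrophage markers rose as 8 of 9 and 9 of 9. Fibroblast markers rose as 5 of 7 and 7 of 7, and endothelial markers as 1 of 6 (with 3 lower) and 5 of 6. The part of these shifts in the members' changes was not tested. In bulk tissue, fewer cells of a type and less RNA per cell cannot be told apart.

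Among the superoxide dismutases, the mitochondrial manganese enzyme Sod2 changed most. Sod2 (chromosome 17, 13006846 to 13040063, plus strand, GRCm38) stood at 123, 122 and 133 FPKM in the CL kidneys of Acot12+/+ mice, against 25.8, 29.9 and 37.3 FPKM in their UUO kidneys. Among Acot12-/- kidneys CL gave 161, 164 and 143 FPKM and UUO 42.4, 24.1 and 47.0 FPKM. All CL libraries lay above all UUO libraries, and the lowest CL value was 122 FPKM against a highest UUO value of 47.0 FPKM. The fall was 4.02-fold in Acot12+/+ (log2 -2.01, SE 0.23, adjusted p = 3.94e-05) and 4.20-fold in Acot12-/- kidneys (log2 -2.07, SE 0.23, adjusted p = 1.75e-05). Of all genes tested 2.36% had a lower log2 fold change than Sod2 in Acot12+/+ kidneys.

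Sod1, the copper-zinc enzyme of the cytosol, is by far the most abundant of the class. Sod1 (chromosome 16, 90220754 to 90226329, plus strand) stood at 1595, 1562 and 1784 FPKM in the CL kidneys of Acot12+/+ mice, against 385, 505 and 637 FPKM in their UUO kidneys. The Acot12-/- values were 1818, 1246 and 2227 FPKM in CL and 658, 351 and 856 FPKM in UUO kidneys. Again no UUO library reached a CL library of either genotype. Sod1 fell 3.29-fold in Acot12+/+ (log2 -1.72, SE 0.32, adjusted p = 0.00102) and 2.94-fold in Acot12-/- kidneys (log2 -1.55, SE 0.32, adjusted p = 0.00149). Its gene overlaps Scaf4 on the other strand, and the strand setting of the authors' counting is not given in the sources used here.

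Sod3, the copper-zinc enzyme that is secreted and held on the matrix and vessel walls, did not pass the test in either genotype. Sod3 (chromosome 5, 52363791 to 52371418, plus strand) stood at 156, 137 and 209 FPKM in the CL kidneys of Acot12+/+ mice, against 107, 113 and 157 FPKM in their UUO kidneys. The Acot12-/- values were 493, 123 and 409.6 FPKM in CL and 213, 87.6 and 163 FPKM in UUO kidneys. The groups overlapped in both genotypes, and the CL library at 123 FPKM was the one that stood apart. The log2 fold change was -0.41 (SE 0.46, adjusted p = 0.489) in Acot12+/+ and -1.004 (SE 0.46, adjusted p = 0.0853) in Acot12-/- kidneys. It was called lower in Acot12-/- kidneys with the replicate pair as a block (adjusted p = 0.00181) and without CL replicate 2 (log2 -1.62, adjusted p = 0.00148).

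**Figure D2:**
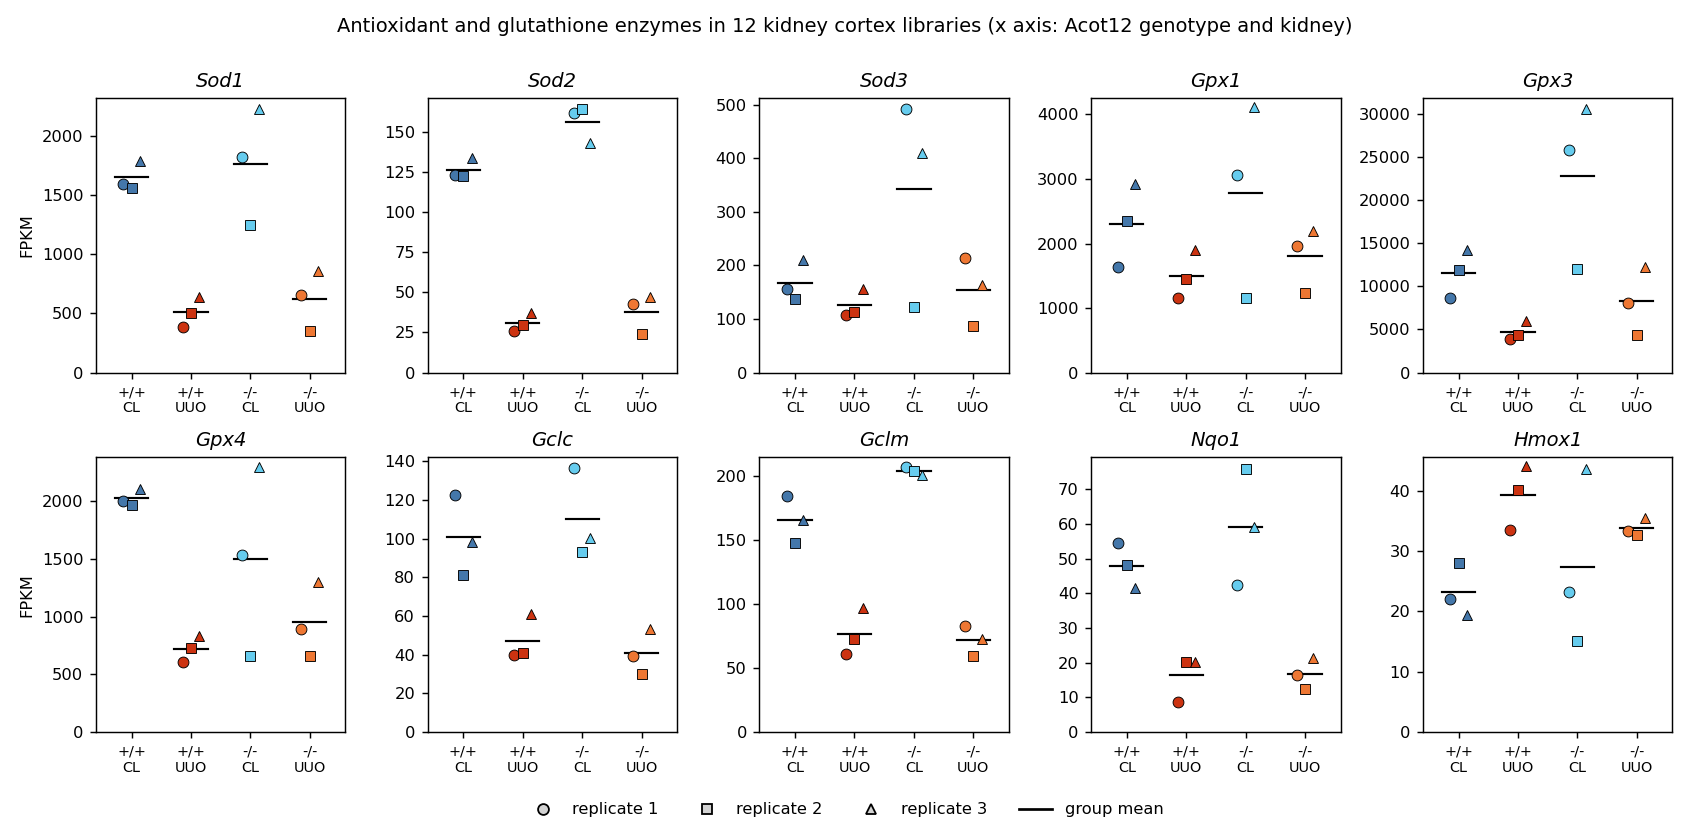
Each panel plots the FPKM of 1 member (y axis, from 0) in the 12 libraries by Acot12 genotype and kidney (x axis). Symbols mark the replicate and the black line the group mean. Sod1, Sod2, Gclc, Gclm and Nqo1 have all CL libraries above all UUO libraries, whereas the other 5 members overlap. The share of all genes without overlap over both genotypes was not counted. Replicate 2 of Acot12-/- CL is the lowest of its group for 7 members.

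Among the glutathione peroxidases, the secreted enzyme Gpx3, which the kidney tubule releases into plasma, stood above every other member in level. Gpx3 (chromosome 11, 54902453 to 54910377, plus strand) stood at 8614, 11904 and 14224 FPKM in the CL kidneys of Acot12+/+ mice, against 3941, 4298 and 5978 FPKM in their UUO kidneys. Acot12-/- kidneys had 25771, 12019 and 30524 FPKM in CL and 8080, 4401 and 12270 FPKM in UUO. The Acot12+/+ groups did not overlap, while in Acot12-/- kidneys UUO replicate 3 lay above CL replicate 2. Gpx3 fell 2.43-fold in Acot12+/+ (log2 -1.28, SE 0.42, adjusted p = 0.0235) and 2.79-fold in Acot12-/- kidneys (log2 -1.48, SE 0.42, adjusted p = 0.0098). The Acot12+/+ call was lost without Acot12+/+ CL replicate 2 (adjusted p = 0.0600) or 3 (0.0850) and without Acot12+/+ UUO replicate 1 (0.0813) or 2 (0.0705), at log2 fold changes from -1.25 to -1.12. Gpx3 made up 63.7% of the members' summed mean FPKM in Acot12+/+ CL and 76.6% in Acot12-/- CL kidneys.

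Gpx4, the enzyme that reduces lipid peroxides inside membranes and so guards against ferroptosis, fell in Acot12+/+ kidneys. Gpx4 (chromosome 10, 80047166 to 80056439, plus strand) stood at 2004, 1967 and 2109 FPKM in the CL kidneys of Acot12+/+ mice, against 604, 731 and 836 FPKM in their UUO kidneys. The Acot12-/- values were 1538, 657 and 2296 FPKM in CL and 897, 663 and 1302 FPKM in UUO. The Acot12+/+ groups lay far apart, whereas in Acot12-/- kidneys CL replicate 2 lay below all UUO libraries. The fall was 2.82-fold in Acot12+/+ kidneys (log2 -1.50, SE 0.38, adjusted p = 0.00707), and the Acot12-/- difference was not called (log2 -0.53, SE 0.38, adjusted p = 0.266). It was called there with the replicate pair as a block (adjusted p = 0.0392) and without CL replicate 2 (log2 -1.03, adjusted p = 0.0084).

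Gpx1, the cytosolic and mitochondrial enzyme for hydrogen peroxide, was not called in either genotype. Gpx1 (chromosome 9, 108338903 to 108340343, plus strand) stood at 1638, 2352 and 2929 FPKM in the CL kidneys of Acot12+/+ mice, against 1162, 1445 and 1893 FPKM in their UUO kidneys. The Acot12-/- values were 3069, 1158 and 4113 FPKM in CL and 1969, 1232 and 2195 FPKM in UUO kidneys. The groups overlapped in both genotypes. The log2 fold change was -0.61 (SE 0.42, 95% interval -1.53 to 0.31, adjusted p = 0.255) in Acot12+/+ and -0.49 (SE 0.42, 95% interval -1.41 to 0.44, adjusted p = 0.355) in Acot12-/- kidneys. With the replicate pair as a block it was called lower in Acot12+/+ kidneys (adjusted p = 0.0261), and without Acot12-/- CL replicate 2 in Acot12-/- kidneys (log2 -1.02, adjusted p = 0.0199).

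The makeup of each enzyme class shifted as well, by a measure taken within each library. Of the summed FPKM of Sod1, Sod2 and Sod3, Sod3 held 8.57% ± 1.18 (SD, n = 3) in CL against 19.0% ± 1.61 in UUO kidneys of Acot12+/+ mice. The same share was 14.2% ± 5.98 in CL against 19.2% ± 4.02 in UUO kidneys of Acot12-/- mice. Averaged over genotypes the share of Sod3 was 7.69 percentage points higher in UUO (exact permutation test within genotypes, two-sided, p = 0.02, adjusted p = 0.03 over 6 shares). For Sod1 and Sod2 the difference was -5.42 and -2.27 points (exact permutation, p = 0.035 and 0.01, adjusted p = 0.042 and 0.02). In every one of the 6 replicate pairs the share of Sod3 was higher and that of Sod2 lower on the UUO side. The call for Sod1 was lost with the replicate pair as a block (adjusted p = 0.075, exact sign-flip permutation). Of 12 fits that each left out 1 library, 9 also lost it.

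Among Gpx1, Gpx3 and Gpx4, Gpx1 held 14.4% ± 0.927 (SD, n = 3) in CL against 21.5% ± 1.01 in UUO kidneys of Acot12+/+ mice, and 9.87% ± 1.40 against 17.2% ± 2.91 in Acot12-/- mice. The share of Gpx3 moved the other way, from 72.5% ± 1.94 to 68.0% ± 1.44 in Acot12+/+ and from 84.8% ± 2.12 to 73.8% ± 3.96 in Acot12-/- kidneys. Over both genotypes the difference was 7.20 percentage points for Gpx1 and -7.70 for Gpx3 (exact permutation test within genotypes, p = 0.005 and adjusted p = 0.015 for each). This p is the smallest that the 400 arrangements allow, and within a single genotype p cannot go below 0.1. Each of the 6 replicate pairs showed both directions. The share of Gpx4 was 13.1% ± 2.84 and 10.5% ± 0.845 in Acot12+/+ CL and UUO, and 5.34% ± 0.772 and 8.99% ± 1.33 in Acot12-/- CL and UUO kidneys, with no difference over both genotypes (0.50 points, exact permutation p = 0.71).

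**Figure D3:**
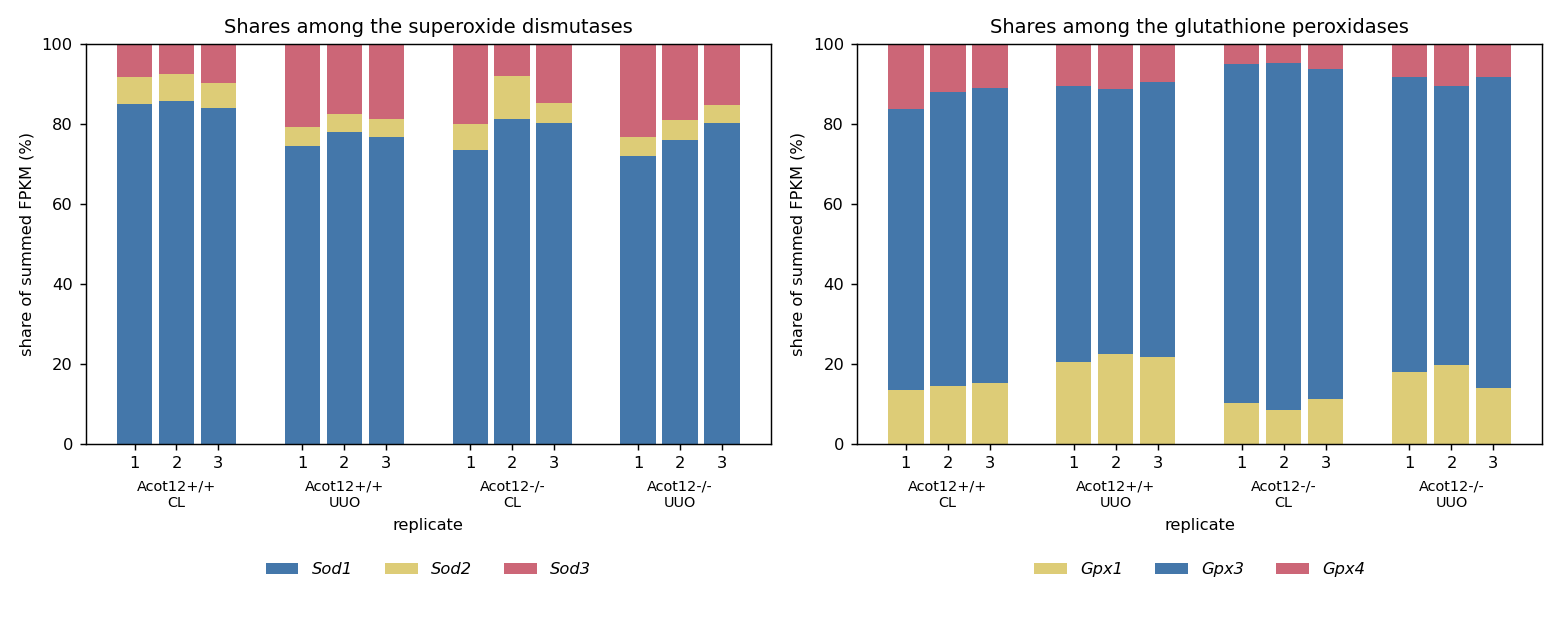
Stacked bars give the share (%) of each gene in the summed FPKM of its class, 1 bar per library, with superoxide dismutases on the left and glutathione peroxidases on the right. The Sod3 segment widens from a mean of 8.57% to 19.0% between Acot12+/+ CL and UUO. The Gpx3 segment is widest in Acot12-/- CL, at a mean of 84.8%.

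Both subunits of glutamate-cysteine ligase fell in both genotypes. Gclc (chromosome 9, 77754535 to 77794485, plus strand), the catalytic subunit, stood at 123, 81.3 and 98.1 FPKM in the CL kidneys of Acot12+/+ mice, against 39.6, 40.7 and 61.1 FPKM in their UUO kidneys. Acot12-/- kidneys had 137, 93.0 and 100.3 FPKM in CL and 39.2, 30.0 and 53.1 FPKM in UUO. All CL libraries lay above all UUO libraries. Gclc fell 2.12-fold in Acot12+/+ (log2 -1.09, SE 0.25, adjusted p = 0.00395) and 2.69-fold in Acot12-/- kidneys (log2 -1.43, SE 0.25, adjusted p = 0.000504).

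Gclm (chromosome 3, 122245557 to 122270732, plus strand), the modifier subunit that makes the catalytic subunit more efficient, stood at 184, 148 and 166 FPKM in the CL kidneys of Acot12+/+ mice, against 60.9, 72.5 and 96.7 FPKM in their UUO kidneys. The values were 207, 204 and 201 FPKM in Acot12-/- CL and 83.3, 59.2 and 72.6 FPKM in Acot12-/- UUO kidneys. CL and UUO did not overlap, and the Acot12-/- CL libraries lay within 1.03-fold of each other. Gclm fell 2.18-fold in Acot12+/+ (log2 -1.12, SE 0.19, adjusted p = 0.000518) and 2.85-fold in Acot12-/- kidneys (log2 -1.51, SE 0.19, adjusted p = 4.46e-05). The modifier stood above the catalytic subunit in all 12 libraries, with group means of 166 against 100.7 FPKM in Acot12+/+ CL and 76.7 against 47.2 FPKM in Acot12+/+ UUO kidneys. The annotation places Gm6061 on the same strand and Gm17494 on the other strand within the Gclm locus, and reads shared with these could not be separated here.

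Nqo1, which reduces quinones so that they cannot cycle and release superoxide, fell in both genotypes. Nqo1 (chromosome 8, 107388225 to 107403206, minus strand) stood at 54.5, 48.2 and 41.4 FPKM in the CL kidneys of Acot12+/+ mice, against 8.78, 20.3 and 20.1 FPKM in their UUO kidneys. Acot12-/- kidneys had 42.6, 75.9 and 59.1 FPKM in CL and 16.6, 12.4 and 21.5 FPKM in UUO. No UUO library reached a CL library. Nqo1 fell 2.97-fold in Acot12+/+ (log2 -1.57, SE 0.31, adjusted p = 0.00148) and 3.36-fold in Acot12-/- kidneys (log2 -1.75, SE 0.31, adjusted p = 0.000533). Acot12-/- CL replicate 2, low for most members, was the highest library for Nqo1, whose transcript has 46.75% GC.

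Hmox1, the inducible heme oxygenase, was the member with a higher mean after UUO in both genotypes, and neither difference was called. Hmox1 (chromosome 8, 75093621 to 75100589, plus strand) stood at 22.1, 28.03 and 19.4 FPKM in the CL kidneys of Acot12+/+ mice, against 33.5, 40.2 and 44.1 FPKM in their UUO kidneys. In Acot12-/- kidneys CL gave 23.3, 15.2 and 43.7 FPKM and UUO 33.4, 32.7 and 35.6 FPKM. The Acot12+/+ groups did not overlap, and Acot12-/- CL replicate 3 lay above all Acot12-/- UUO libraries. The log2 fold change was 0.74 (SE 0.29, adjusted p = 0.0529) in Acot12+/+ and 0.42 (SE 0.29, adjusted p = 0.241) in Acot12-/- kidneys. With the replicate pair as a block Hmox1 was called higher in Acot12+/+ kidneys (adjusted p = 0.0368), and without Acot12-/- CL replicate 3 it was called higher in Acot12+/+ (adjusted p = 0.00687) and in Acot12-/- kidneys (log2 0.81, adjusted p = 0.00673). Over all settings tried its adjusted p ran from 0.000283 to 0.159 in Acot12+/+ kidneys.

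Kidneys of the same genotype and replicate number deviated together and were read as pairs, although no label states that they come from the same mouse. The ratio of the UUO to the CL kidney was below 1 in all 6 pairs for Sod1, Sod2, Sod3, Gpx3, Gclc, Gclm and Nqo1. For Sod2 this ratio ran from 0.147 to 0.329, and for Gpx3 from 0.314 to 0.457. Gpx1 and Gpx4 were lower in 5 of 6 pairs, the exception being Acot12-/- pair 2 with ratios of 1.06 and 1.01, whose CL library was the one that stood apart. Hmox1 was higher on the UUO side in 5 of 6 pairs, at ratios of 1.43 to 2.27, and lower in Acot12-/- pair 3, at 0.814.

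The order of the groups by mean FPKM was alike for most members. Both CL groups stood above both UUO groups for 9 members, and Hmox1 had the reverse order. The Acot12-/- CL group had the highest mean of the 4 groups for 8 members, all but Gpx4 and Hmox1. The share of all genes with these orders was not counted, and no member was called between genotypes in the main fit. Neighbours in this order mostly overlapped: the CL groups of the genotypes were apart library by library for Sod2 and Gclm alone, and the UUO groups overlapped for all 10 members. By level, Gpx3 came first and Gpx1 second in each group, and Nqo1 and Hmox1 filled the last ranks in Acot12+/+ CL kidneys, at 48.0 and 23.2 FPKM. After UUO the mean of Hmox1 (39.3 FPKM) stood above those of Sod2 (31.0 FPKM) and Nqo1 (16.4 FPKM) in Acot12+/+ kidneys.

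The next comparisons asked whether loss of Acot12 changed these enzymes on either side. In UUO kidneys limma called 0 of the 10 members between genotypes, and 0 had an unadjusted p under 0.05. Of all genes 0.0151% were called there and 2.36% had an unadjusted p under 0.05. The genotypes overlapped in all 10 members, where 12.0% of all genes did not (5.50% higher and 6.48% lower in Acot12-/- kidneys). The member with the largest difference was Gpx3, at a mean of 8250 FPKM in Acot12-/- against 4739 FPKM in Acot12+/+ UUO kidneys, with a log2 difference of 0.70 (SE 0.42, 95% interval -0.20 to 1.61, adjusted p = 1). The other members lay between -0.21 and 0.36.

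In CL kidneys limma also called 0 of the 10 members between genotypes, with 0 at an unadjusted p under 0.05, whereas 4.48% of all genes were called and 17.3% had such an unadjusted p. With only the CL groups in the fit, 0.00755% of all genes were called. Gpx3 had a mean of 22771 FPKM in Acot12-/- and 11581 FPKM in Acot12+/+ CL kidneys, a log2 difference of 0.90 (SE 0.42, 95% interval -0.01 to 1.80, adjusted p = 0.294). For Sod3 the difference was 0.82 (SE 0.46, 95% interval -0.19 to 1.82, adjusted p = 0.414), and for Gpx4 it was -0.61 (SE 0.38, 95% interval -1.45 to 0.22, adjusted p = 0.471). Without Acot12-/- CL replicate 2, Gpx3 (log2 1.31, adjusted p = 0.0488) and Sod3 (log2 1.44, adjusted p = 0.0142) were called higher in Acot12-/- kidneys. In the same setting 11.6% of all genes were called higher, against 1.12% with that library kept. Both genes have GC contents over 52% and deviated in that library by -0.81 and -1.24 from the group mean on the log2 scale. With log2 values corrected for GC content, a setting chosen after the values were seen, neither was called (adjusted p = 0.113 and 0.252).

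For Sod2 and Gclm the CL libraries of the genotypes did not overlap, and neither difference was called. For Sod2 the Acot12-/- CL libraries ran from 143 to 164 FPKM and the Acot12+/+ CL libraries from 122 to 133 FPKM (log2 difference 0.30, SE 0.23, adjusted p = 0.566). For Gclm they ran from 201 to 207 FPKM and from 148 to 184 FPKM (log2 difference 0.30, SE 0.19, adjusted p = 0.476). These are 2 of 10 members without overlap, near the 18.3% of all genes (8.60% higher and 9.73% lower in Acot12-/- kidneys). Both have under 43% GC and deviated from the group mean by 0.07 and less than 0.01 in Acot12-/- CL replicate 2.

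The shares of the glutathione peroxidases, which do not depend on the scaling of a library, were apart between the genotypes in CL kidneys. The share of Gpx3 was 70.3% to 73.8% in Acot12+/+ and 82.7% to 86.9% in Acot12-/- CL libraries, 12.3 percentage points higher on average (exact permutation test, two-sided, p = 0.1). The shares of Gpx1 and Gpx4 were -4.49 and -7.80 points apart, lower in Acot12-/- libraries and again with no overlap (exact permutation p = 0.1 for each). In UUO kidneys the share of Gpx3 was 5.81 points higher in Acot12-/- libraries and that of Gpx1 differed by -4.31 points, without overlap (exact permutation p = 0.1). With 3 libraries against 3 this p is the smallest possible, and the comparison was made after the values were seen.

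The interaction asked whether UUO changed a member differently in the genotypes. limma called 0 of 10 members, 0 had an unadjusted p under 0.05, and 0.106% of all genes were called (10.5% at an unadjusted p under 0.05). The largest difference between the genotypes' log2 fold changes was that of Gpx4, at 0.97 (SE 0.54, 95% interval -0.21 to 2.15, adjusted p = 0.607). It was 0.80 with an adjusted p of 0.0436 when the GC correction and the replicate block were used together. In that joint setting 2.64% of all genes were called for the interaction. The adjusted p of Gpx4 was 0.321 with the GC correction alone and 0.141 with the block alone. Sod3 followed with -0.59 (SE 0.65, adjusted p = 0.88). The 95% intervals of all 10 members include 0, and that of Sod3 runs from -2.02 to 0.83.

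**Figure D4:**
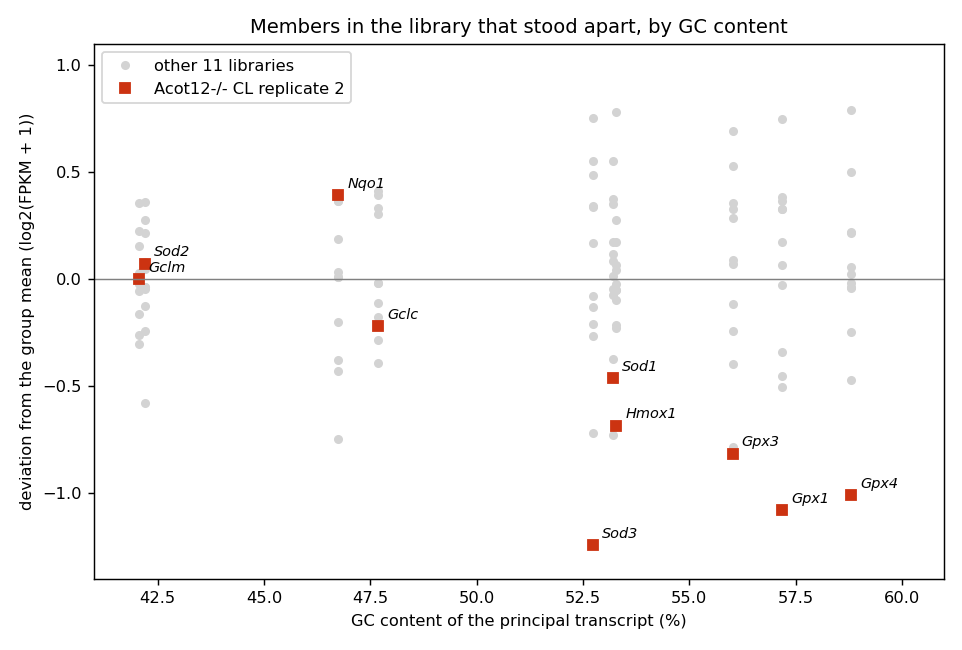
The x axis gives the GC content (%) of each member's principal transcript and the y axis its deviation from the group mean of log2(FPKM + 1). Red squares are Acot12-/- CL replicate 2 and grey points the other 11 libraries. The members with over 52% GC all lie below 0 in this library, down to -1.24 for Sod3, while Nqo1 lies at 0.39.

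Across the 12 libraries the members moved together to different degrees. These correlations of log2(FPKM + 1) are descriptions: the points share libraries, depth and base composition, and they hold the difference between CL and UUO. The highest was that of Sod2 and Gclm (r = 0.976, n = 12), followed by Sod1 and Sod2 (0.961) and by Gclc and Gclm (0.955). After the group means were subtracted, Gpx1 and Gpx3 were closest (0.934), followed by Sod1 and Gpx3 (0.925) and Gpx1 and Gpx4 (0.920). Hmox1 ran against Sod2 over the 12 libraries (r = -0.637) and had r near 0 with it within groups (-0.036), while it followed Gpx4 within groups (0.820).

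The genes most like each member were read from 12709 other genes by the same correlation (n = 12). Gnmt (0.997) and Cisd1 (0.994) were nearest to Sod1, and within groups Gnmt (0.988) and Ccdc107 (0.984). For Sod2 they were Oxct1 (0.997) and F13b (0.996), and within groups Oxct1 (0.977) and Ces1f (0.971). Sod3 was most like Tecr (0.980) and Spata2l (0.976), and within groups Slc25a10 and Pdk2 (0.986 each). Gpx1 was nearest to Pex16 (0.977) and Mrpl2 (0.970), and within groups to Rph3al (0.991) and Nlrx1 (0.987). For Gpx3 these were Pdzk1ip1 (0.979) and Slc34a3 (0.970), and within groups Ndufa8 (0.978) and Dao (0.968). Gpx4 was closest to Ndufa7 (0.988) and Ndufb7 (0.987), and within groups to Coq4 and Psmb5 (0.990 each). Gclc lay nearest to Slc22a26 (0.984) and Itih2 (0.981), which were also its nearest genes within groups, at 0.941 and 0.963. Gclm was most like Fam107a (0.992) and Hacd2 (0.990), and within groups Cyp4a31 (0.942) and Aadat (0.938). Nqo1 was nearest to Ttc32 (0.988), and within groups to Ttc32 (0.946) and Acyp2 (0.935). Hmox1 had the lowest first value, with Tnfrsf1a (0.955) and Trmt2a (0.954), and within groups Tssk6 (0.977) and Pdcd2l (0.968). The nearest gene was the same in both measures for Sod1, Sod2 and Nqo1.

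Other enzymes that remove peroxides were mostly lower after UUO. Of 12 tested genes in this list, 8 fell and 1 rose in Acot12+/+ kidneys (median log2 fold change -0.81), and 8 fell and 2 rose in Acot12-/- kidneys (-0.82), against 23.9% lower and 23.6% higher of all genes in Acot12+/+ and 27.2% and 26.6% in Acot12-/- kidneys. Gpx6 (log2 -4.59, adjusted p = 2.74e-05) and Prdx3, the mitochondrial peroxiredoxin (-1.71, adjusted p = 3.94e-05), fell most in Acot12+/+ kidneys. Gpx7, a peroxidase of the endoplasmic reticulum, rose by 1.097 (adjusted p = 0.00408).

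In glutathione synthesis, reduction, breakdown and transport, 12 of 17 tested genes fell and 0 rose in Acot12+/+ kidneys (median -0.98), and 13 fell and 0 rose in Acot12-/- kidneys (-1.14), by limma, with 14 and 15 genes at an unadjusted p under 0.05. The background was 23.9% of all genes lower and 23.6% higher in Acot12+/+, and 27.2% and 26.6% in Acot12-/- kidneys. Chac2 (log2 -2.14) and Ggct (-2.06), both of which break down glutathione or its products, fell most in Acot12+/+ kidneys. Glutathione synthetase and reductase, the neighbours of the ligase in the cycle and named here outside the naming rule, fell in both genotypes (Gss -1.20 and -1.23, Gsr -0.98 and -1.33). Slc3a2, the heavy chain shared by the cystine transporter, was higher in Acot12-/- than in Acot12+/+ CL kidneys (log2 difference 1.28, SE 0.22, adjusted p = 0.0109). This call was lost with only the CL groups in the fit (adjusted p = 0.0818) and without Acot12+/+ CL replicate 1 (0.0516). After UUO it fell in Acot12-/- kidneys (log2 -0.94, adjusted p = 0.00385), and in Acot12+/+ kidneys its log2 fold change was 0.54 (adjusted p = 0.0649).

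Thioredoxin genes, which form the parallel route of thiol reduction, divided: of 8 tested, 5 fell and 2 rose in each genotype (medians -0.48 and -0.60). The background was 23.9% of all genes lower and 23.6% higher in Acot12+/+, and 27.2% and 26.6% in Acot12-/- kidneys. Txn2 (-0.84) and Txnrd2 (-0.65), the mitochondrial pair, fell most, and Txnip (1.35), the inhibitor of thioredoxin, and Nxn (0.78) rose in Acot12+/+ kidneys. Of 11 genes that supply NADPH, the source of electrons for both routes, 6 fell in each genotype, and 1 rose in Acot12+/+ and 0 in Acot12-/- kidneys by limma (medians -0.84 and -0.95), with 7 and 6 genes at an unadjusted p under 0.05. Nadk2 (-1.88) and Me1 (-1.79) fell most in Acot12+/+ kidneys, and Pgd of the pentose phosphate pathway rose (0.69, adjusted p = 0.0133).

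Most genes of NRF2 itself and its regulators were not called, 6 of 10 in each genotype. Of all genes 47.5% were called in Acot12+/+ (23.9% lower, 23.6% higher) and 53.7% in Acot12-/- kidneys (27.2% lower, 26.6% higher). Of 10 tested genes 2 fell and 2 rose in each genotype (medians 0.14 and 0.11), with falls of Cul3 (-0.75) and Rbx1 (-0.69), parts of the KEAP1 ubiquitin ligase, and rises of Maff (2.56) and Nfe2l1 (0.54) in Acot12+/+ kidneys. Nfe2l2, the gene of NRF2, had a log2 fold change of 0.45 (adjusted p = 0.0743) and Keap1 of 0.07 (adjusted p = 0.771), and both are named here outside the naming rule. Among other NRF2 targets the calls also went both ways: of 15 tested, 6 fell and 5 rose in each genotype (medians 0.31 and -0.05). Me1 (-1.79) and Akr1a1 (-1.60) fell most in Acot12+/+ kidneys, whereas Akr1b8 (3.16), an aldo-keto reductase, and Abcc4 (1.49), an efflux pump, rose most. The list shares Me1, Pgd, Txnrd1, Srxn1 and G6pdx with other lists here.

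Of 16 tested genes of heme and iron handling, 7 fell in each genotype, and 3 rose in Acot12+/+ and 4 in Acot12-/- kidneys (medians -0.52 and -0.67). For this list and the next, the background was 23.9% of all genes lower and 23.6% higher in Acot12+/+, and 27.2% and 26.6% in Acot12-/- kidneys. Tfrc, the transferrin receptor (-2.67), and Fech, which inserts iron into heme (-1.24), fell most, and Trf (2.04) and Hp (1.33), the genes of transferrin and haptoglobin, rose most in Acot12+/+ kidneys. Hp was low and its groups overlapped, at 0.603, 5.25 and 0.127 FPKM in Acot12+/+ CL and 3.85, 6.35 and 4.06 FPKM in UUO libraries (limma, adjusted p = 0.0466). Lrp1, a receptor that takes up heme bound to hemopexin, was lower in Acot12-/- than in Acot12+/+ CL kidneys (log2 difference -0.94, SE 0.17, adjusted p = 0.013). The call was lost with only the CL groups in the fit (adjusted p = 0.0743), without Acot12+/+ CL replicate 3 (0.0504), without Acot12-/- CL replicate 1 (0.0552) and where a fold of at least 2 was asked for. Selenium matters to this system because Gpx1, Gpx3 and Gpx4 are selenoproteins. Of 16 tested genes of selenium supply and other selenoproteins, 9 fell and 1 rose in Acot12+/+ (median -0.73), and 10 fell and 1 rose in Acot12-/- kidneys (-0.89). Lrp2 (-2.40), which takes up filtered selenoprotein P and is also one of the proximal tubule markers, and Selenbp1 (-1.997) fell most, and Sepw1 rose by 0.78 in Acot12+/+ kidneys.

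Genes that make superoxide or peroxide moved in both directions. Of 12 tested, 4 fell (23.9% and 27.2% of all genes) and 6 rose (23.6% and 26.6% of all genes) in each genotype (medians 0.38 and 0.44). Nox4, the NADPH oxidase of tubule cells, was among those that fell (-1.57 in Acot12+/+ kidneys). Ncf1 (1.41) and Rac2 (1.36), parts of the phagocyte NADPH oxidase, rose most in Acot12+/+ kidneys. Rac2 was lower in Acot12-/- than in Acot12+/+ CL kidneys (log2 difference -1.01, SE 0.15, adjusted p = 0.00564), though not with only the CL groups in the fit (adjusted p = 0.0683). With only those groups 0.00755% of all genes were called between genotypes, against 4.48% in the main fit. In the main fit between genotypes in CL, 4 of 9 macrophage, 3 of 4 lymphocyte and 5 of 6 endothelial markers were called lower, against 3.36% of all genes. So were 2 of 4 smooth muscle, 2 of 7 fibroblast and 1 of 9 other tubule markers. Of the proximal tubule, injured tubule, podocyte and red cell markers 0 were lower. The summed macrophage level was 55.2 to 121 FPKM in Acot12-/- and 159 to 184 FPKM in Acot12+/+ CL libraries. The part of these shifts in the difference of Rac2 was not tested.

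**Figure D5:**
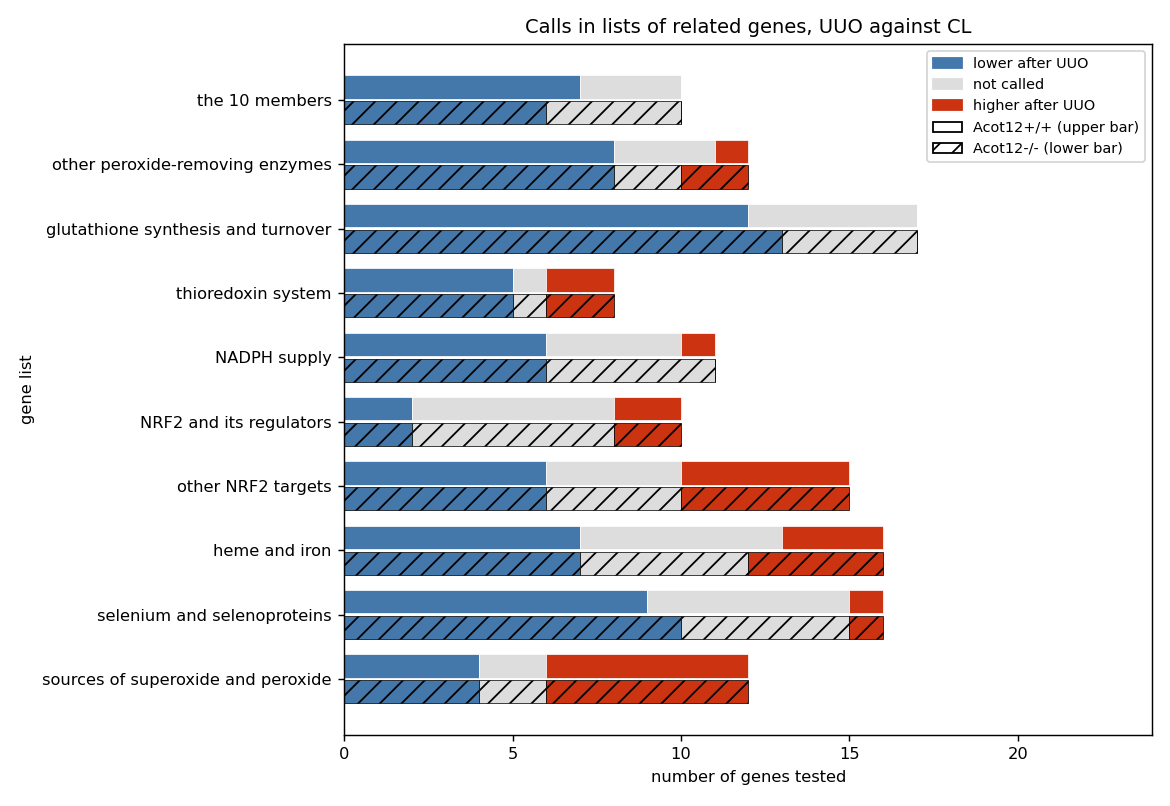
Each pair of bars gives, for 1 gene list, the number of genes tested (x axis) called lower (blue), not called (grey) and called higher (red) after UUO, in Acot12+/+ (upper bar) and Acot12-/- kidneys (lower, hatched bar). The glutathione list has 12 and 13 lower and 0 higher, and the list of superoxide and peroxide sources has 6 higher in each genotype.

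The scaling of the libraries sets how large these falls appear. The total FPKM was 799670 to 977981 in CL and 491078 to 686425 in UUO libraries. When all 12 libraries were brought to an equal sum of FPKM, the median of all genes moved to 0.62 in Acot12+/+ and 0.45 in Acot12-/- kidneys, and the share of lower genes among those called went from 50.3% to 12.4% and from 50.5% to 20.3%. In that setting 3 members were called lower (Sod1, Sod2 and Nqo1) and Hmox1 higher in Acot12+/+ kidneys. In Acot12-/- kidneys 6 members were called lower and Hmox1 higher. Of all genes 64.0% were called there in Acot12+/+ kidneys, 56.1% as higher, and 57.6% in Acot12-/- kidneys, 45.9% as higher. Relative to the median of all genes in that setting, Sod2 lay at -1.91, Gpx3 at -1.17, Gpx1 at -0.49 and Hmox1 at 0.84 in Acot12+/+ kidneys. The lists of related genes were counted in the deposited scaling alone.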

How the data were processed

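RNA of kidney cortex was sequenced by the authors' service provider as directional libraries, and a table of 23183 gene symbols by 12 libraries was deposited. The submitters' processing notes name mm10 and edgeR, and the aligner is not given in the sources used here. The authors deposited FPKM values without naming the unit. The unit was read from the values, since the smallest values of a gene rise in equal steps and the step is smaller for longer transcripts. The fragment totals behind the scaling, relative to Acot12+/+ UUO replicate 1, were 0.539 to 0.710 in CL and 0.807 to 1 in UUO libraries. They equal depth only if no further scaling was applied, so that no counting interval is given.

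Genes with at least 1 FPKM in at least 3 libraries were tested, without 28 genes listed at 0 in a library although another of the group had at least 10 FPKM. log2(FPKM + 1) of the 13243 remaining genes was fitted with limma 3.58.1 in R 4.3.3, with 4 group means, a variance trend and Benjamini-Hochberg adjustment over all genes. Fold changes on this scale understate the change of low genes. Shares of an enzyme class were compared with exact permutation tests. The fits were tested on simulated data. Nothing states that replicates are separate animals, so p-values measure the spread between these libraries.

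Same-numbered CL and UUO kidneys mostly deviated together more than differently numbered ones. Deviations from the group means of same-numbered kidneys correlated at 0.134 to 0.364 in Acot12+/+ and 0.186 to 0.322 in Acot12-/- mice. Differently numbered kidneys reached at most 0.139 and -0.075. Acot12+/+ pair 1 (0.134) lay below CL replicate 2 with UUO replicate 1 (0.139), so the values do not single out that pair. The labels only give the numbers, and the results with the replicate block rest on this reading.

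The members and the lists of related genes were chosen with earlier results of these data known. From each list, up to 2 genes with the largest rises and falls in Acot12+/+ kidneys were named, and those called between genotypes. A few genes that this rule would name are not reported here. Positions are from GENCODE on GRCm38. The promoters are from RefSeq. The alternatives were another pseudocount, no filter, other scalings, no trend, fewer groups, a fold minimum of 2, the replicate block and each library left out. A GC correction was added after seeing the data, with a GC content for 12767 genes.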

Additional observations from a re-analysis of the deposited data

Results flagged for a closer look

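The share of Gpx4 among the glutathione peroxidases moved in opposite directions after UUO in the genotypes. It was lower in the UUO kidney of all 3 Acot12+/+ pairs, by differences of -5.77, -0.84 and -1.35 percentage points, and higher in all 3 Acot12-/- pairs, by 3.13, 5.78 and 2.04 points. The genotypes differed by 6.30 points (exact permutation of the genotype labels over 6 pairs, two-sided, p = 0.1, the smallest that 20 arrangements allow). The share was flagged because all pairs of one genotype went against all pairs of the other. That rule fixes this p in advance, so the p adds nothing to the description.

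Tie1, an endothelial receptor from the marker lists, changed differently after UUO in the genotypes. It had 7.08 to 9.81 FPKM in Acot12+/+ CL and 7.11 to 8.98 FPKM in Acot12+/+ UUO libraries, and 3.13 to 3.69 FPKM in Acot12-/- CL and 9.58 to 10.5 FPKM in Acot12-/- UUO libraries. The interaction was 1.38 on the log2 scale (SE 0.20, limma, adjusted p = 0.0287), and Tie1 was the only gene of the lists to pass this test. The call was lost in 13 of 22 alternatives, among them no filter on low values (adjusted p = 0.0674), equal total FPKM (0.269), the GC correction (0.0813) and 10 of the 12 fits that left out 1 library, all but those without Acot12-/- CL replicate 2 or 3. The log2 value stayed between 1.18 and 1.59. All 6 endothelial markers had a positive interaction and an unadjusted p under 0.05 in limma, with a median of 1.12 on the log2 scale. Of all genes 10.5% had such an unadjusted p.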

How the results depend on the processing

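Brought to equal total FPKM, the libraries gave 4 called members in Acot12+/+ kidneys, where 64.0% of all genes were called. Gpx4 lay at -0.76 there (limma, adjusted p = 0.0532). In that setting, values that turned in sign were Sod3 (0.32) and Gpx1 (0.13) in Acot12+/+, Gpx1 (0.063) and Gpx4 (0.020) in Acot12-/- kidneys, Nqo1 between genotypes in UUO (-0.072), and the interactions of Sod1 (-0.022) and Gpx1 (-0.063). None of these was called in either setting. The replicate block entered as a term per pair for UUO against CL and for the interaction. Between genotypes it entered as a correlation within pairs, which limma estimated at 0.208. The block gave 9 and 8 called members in Acot12+/+ and Acot12-/- kidneys and 0 in the 3 other comparisons. Of all genes 51.0% and 56.2% were called with it in Acot12+/+ and Acot12-/- kidneys. For the shares the pairing gave -5.42 points for Sod1 (adjusted p = 0.075, exact sign-flip permutation) and changed no other call. Corrected for GC content, a setting chosen after seeing the data, 9 members were called in each genotype, and 10 and 9 with the replicate block added, which also called 1 interaction. Of all genes 55.3% and 60.3% were called after the GC correction, and 59.96% and 64.0% with the block added. For the interaction 2.64% of all genes were called with both, against 0.106% in the main fit. The cause was not tested for any of these.

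With each library left out once there were 6 to 8 called members in Acot12+/+ and 6 to 9 in Acot12-/- kidneys, 0 to 2 between genotypes in CL, and 0 in UUO and for the interaction. Of all genes the same fits called 37.2% to 61.8% in Acot12+/+ and 44.2% to 63.4% in Acot12-/- kidneys. Between genotypes in CL they called 1.43% to 22.1%. The 2 member calls in CL came without Acot12-/- CL replicate 2, where that share was 22.1%. In UUO the share was at most 0.0151%, and for the interaction at most 6.92%. The share differences ran from -6.62 to -4.41 for Sod1 (adjusted p = 0.018 to 0.096), -2.85 to -1.46 for Sod2, 6.14 to 9.12 for Sod3, 6.60 to 8.01 for Gpx1, -8.70 to -6.72 for Gpx3 and -0.047 to 1.30 for Gpx4. The Sod3 share was not called without Acot12-/- UUO replicate 1 (adjusted p = 0.0525). Log2 differences that crossed 0, none of them called on either side, were between genotypes in UUO those of Sod1 (-0.051 to 0.59), Sod3 (-0.050 to 0.59), Gclm (-0.235 to 0.095) and Nqo1 (-0.28 to 0.28). In CL they were those of Sod1 (-0.13 to 0.29), Gpx1 (-0.25 to 0.66), Gclc (-0.040 to 0.28) and Hmox1 (-0.27 to 0.46). For the interaction they were those of Sod1 (-0.11 to 0.53), Sod2 (-0.24 to 0.23), Gpx1 (-0.41 to 0.50), Gpx3 (-0.60 to 0.20), Nqo1 (-0.55 to 0.020) and Hmox1 (-0.66 to 0.072). Over all members and alternatives, 207 of 230 values in Acot12+/+ and 215 of 230 in Acot12-/- kidneys kept their direction and side of the threshold.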
